A study of Mus musculus with 2 samples.

Results

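RP-high microglia are the spinal microglia in which ribosomal protein (RP) mRNAs made up at least 8% of the captured transcripts, short of the highest RP shares in the data. They numbered 143 of 1592 kept cells, 88 of the control and 55 of the 4E-BP1-cKO library. They were selected on measured values, the percentage of a cell's unique molecular identifiers (UMIs, 1 per captured mRNA molecule) that fell on 85 RP genes. A member had at least 1200 UMIs and an RP share of at least 8%, and was not among the 5% of kept cells with the highest RP share, which began at 12.8%. The comparison cells were 424 microglia of the same libraries with at least 1200 UMIs and an RP share from 2.5% to under 8%, 304 of the control and 120 of the 4E-BP1-cKO library.

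The study asked how the loss of the translational repressor 4E-BP1 in microglia acts on the spinal cord and on pain. Microglia of the lumbar spinal cord were sorted as CD45lo, CD11b hi and CX3CR1 hi cells from male mice of 8 to 10 weeks and captured in droplets, 1 library per genotype. The control library is labelled WT and given elsewhere in the study as Eif4ebp1 fl/fl, and the 4E-BP1-cKO library came from Eif4ebp1 fl/fl:TMEM119 CreERT2 mice, in which the tamoxifen-inducible recombinase is expressed from Tmem119, a gene of microglia. The mice had received 4-hydroxytamoxifen (4-OHT) from P4 to P9, and how many mice were pooled for a library is unknown from the sources used here. The deposited barcodes numbered 1216 in the control library, with 4914298 UMIs in all, and 474 in the other, with 1769927 UMIs. No barcode occurred in both. With 1 library per genotype there was no replicate, so no test was made, the intervals cover counting error only, and genotype, mice, sort and capture cannot be told apart.

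The mRNAs of ribosomal proteins and of several elongation factors belong to the TOP mRNAs, named for a terminal oligopyrimidine tract, a cytosine followed by a run of pyrimidines at the very start of the transcript. Translation of TOP mRNAs depends on the kinase mTORC1, which also phosphorylates 4E-BP1 and so releases the cap-binding protein eIF4E. Microglia are the resident macrophages of the spinal cord, and isolation can induce chemokine, cytokine and early response genes in them.

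The start sites of 5 such genes are shown because TOP mRNAs that the selection did not use were higher as a group in RP-high microglia. The 5 were taken, by UMIs in control members, from genes whose annotated start is a C followed by at least 4 further pyrimidines. They therefore illustrate the tract and support nothing. Fau, Rack1 and Eif3f carry no Rps or Rpl name and were not used, whereas Rps21 and Rpl35a were. Each sequence is the sense strand from 10 bases before to 20 bases from the annotated start, from RefSeq on GRCm38.p6, and capitals mark the run of pyrimidines that opens with C at the first transcribed base. Rps21 and Rpl35a have several annotated starts, and the one that opens such a run is shown.
Fau, chr19:6057937-6057966, plus strand: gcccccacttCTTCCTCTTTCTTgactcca
Rack1, chr11:48800350-48800379, plus strand: gccgctctttCTTTTTCTCCacagggtcgt
Eif3f, chr7:108934405-108934434, plus strand: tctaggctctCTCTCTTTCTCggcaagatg
Rps21, chr2:180257369-180257398, plus strand: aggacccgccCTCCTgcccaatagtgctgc
Rpl35a, chr16:33056472-33056501, plus strand: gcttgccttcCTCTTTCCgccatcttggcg

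The same window is shown for contrast for 2 genes that were higher in RP-high microglia without belonging to the translation machinery. Both are in lower case throughout because no such run opens at their annotated start. Most promoter entries of all genes lack such a run too, so the contrast marks no group.
Cxcl2, chr5:90903889-90903918, plus strand: cctccaacaagcttcctcgggcactccaga
Lyz2, chr10:117282253-117282282, minus strand: ttctctagtcagccagcagctgacccagcc

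A C at the annotated start followed by at least 4 further pyrimidines was found in 4 of 13 TOP list genes with a promoter entry (30.8%; exact 95% interval, 9.09% to 61.4%). It was found in 15 of 80 promoter entries of RP genes (18.75%) and in 823 of 32851 entries of all genes (2.51%). With the C allowed within 3 bases of the start, the shares were 46.2%, 36.2% and 11.5%. An annotated start can lie some bases off the true one, and the window does not show which start these cells used.

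RP-high microglia made up 7.67% of the kept control cells (exact 95% interval, 6.198% to 9.37%) and 12.4% of the kept 4E-BP1-cKO cells (9.45% to 15.8%). Among cells with at least 1200 UMIs, the depth the selection requires, the shares were 8.74% (7.07% to 10.7%) and 16.1% (12.4% to 20.4%). At these limits of RP share and depth, both intervals lay apart between the libraries. Whether they do so at other limits is not given here. Cells under 2.5% RP share with at least 1200 UMIs made up 49.4% of kept control cells and 30.3% of kept 4E-BP1-cKO cells, whereas the comparison cells made up 26.5% and 27.0%. The top RP shares, above the members, belonged to 4.18% and 7.19% of cells.

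The RP share of the members, which selected them, ran from 8.03% to 12.8% with a median of 9.58% in the control and from 8.01% to 12.4% with a median of 9.50% in the 4E-BP1-cKO library. The comparison cells had medians of 4.94% and 5.19%. The limits cut through a continuous range of values, as the plot of RP share against depth shows. Just under the lower limit, from 7.5% to 8%, lay 10 control and 14 4E-BP1-cKO cells, and just above it, up to 8.5%, lay 17 and 8. Just under and just above the limit, the level of Mt1 was 367 and 723 CPM in control cells, and 913 and 493 CPM in 4E-BP1-cKO cells. CPM here is the UMIs of a gene summed over the cells of a class in 1 library, scaled to 1e+06 UMIs outside RP and mitochondrial genes, so that the selected genes do not enter the total. Below the upper limit 5 control and 4 4E-BP1-cKO cells lay within 1 percentage point, and 14 and 9 lay as near above it.

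**Figure D1:**
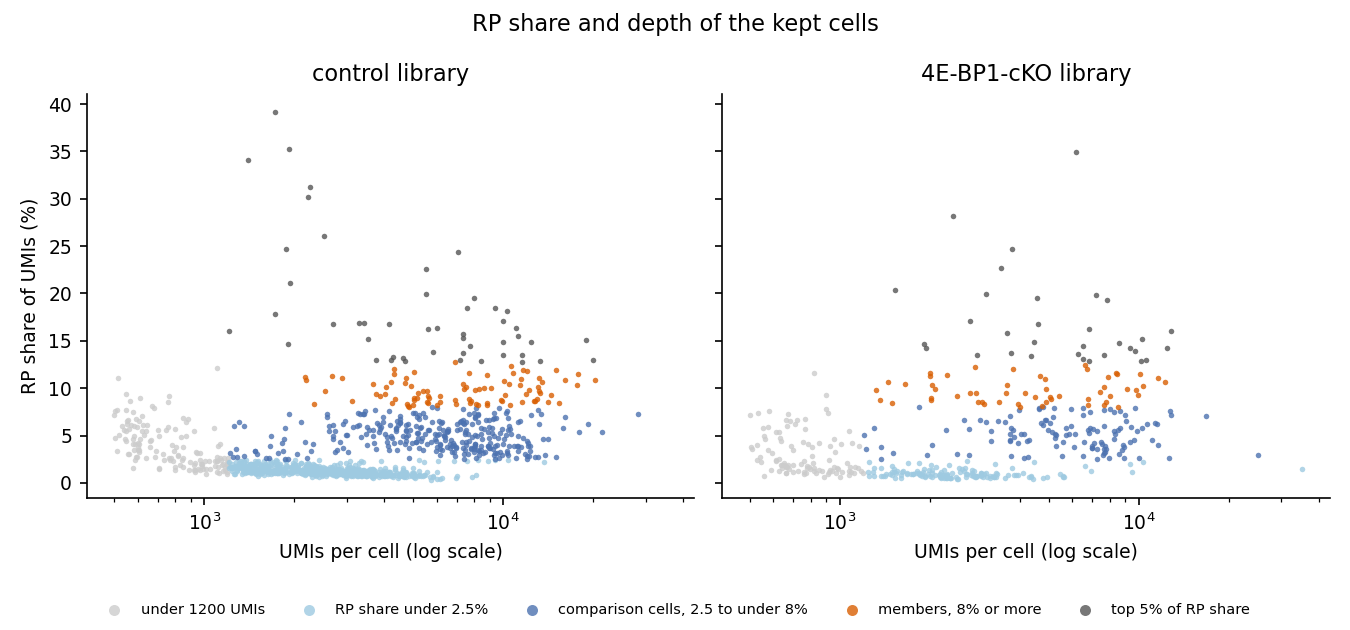
RP share in percent of UMIs against UMIs per cell on a log scale, 1 point per kept cell, with the control library on the left and the 4E-BP1-cKO library on the right. Members (orange) are the RP-high microglia between RP shares of 8% and 12.8%, and they lie within a continuous spread above the comparison cells (blue), with no gap at either limit.

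Control RP-high microglia were somewhat deeper than their comparison cells, with medians of 7576 against 6383 UMIs and 2593 against 2522.5 genes per cell. In the 4E-BP1-cKO library they were shallower, with 4683 against 6118 UMIs and 1995 against 2461 genes. With every cell thinned to 900 UMIs, median genes per cell were 636 against 638 in the control and 617 against 628 in the 4E-BP1-cKO library. The mitochondrial share, a sign of RNA quality, was higher in the members, with medians of 1.18% against 0.6005% and 0.949% against 0.469%. Its part in the results was not tested. Scrublet, a doublet caller, marked 0 control and 1 4E-BP1-cKO members and 3 and 6 comparison cells, and none were removed.

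The members carried the markers of microglia. P2ry12, the purinergic receptor of resting microglia, had a UMI in 98.9% of control and 94.5% of 4E-BP1-cKO members, and Cx3cr1, the fractalkine receptor used in the sort, in 100% of both. P2ry12 stood at 1228 CPM in control members and 1539 in comparison cells, and at 1018 and 1255 in the 4E-BP1-cKO library. Cx3cr1 stood at 2742 against 2943 and 2531 against 2632. The 26 homeostatic microglial genes had median log2 ratios of members over comparison cells of -0.05 in the control and -0.07 in the 4E-BP1-cKO library, beside -0.04 and -0.06 for all 6330 genes compared. None of the 26 was 1.5-fold higher or lower in both libraries, beside 2.89% and 4.01% of all genes. Ratios carry a pseudocount of 5 CPM.

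Of this list 9 genes were above 0 and 12 below in both libraries, beside 27.3% of all genes above and 35.9% below. Cst3, the protease inhibitor cystatin C, had log2 ratios of 0.39 and 0.33, and Ctss, the protease cathepsin S, of 0.42 and 0.29. Fcrls, an Fc receptor-like gene of microglia, had -0.57 and -0.45, and the transcription factor gene Mef2c had -0.64 and -0.33.

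Markers of neutrophils and of T and NK cells had 0 UMIs in the members of both libraries, for 8 and 9 genes. The 8 monocyte markers summed to 15 UMIs in control members, led by Ccr2 with 8, and 1 UMI in 4E-BP1-cKO members, with Ly6c2 at 0 in both. The 8 markers of border-associated macrophages summed to 32 and 1 UMIs, led by Dab2, with Cd163, Lyve1 and Cbr2 at 0. The 6 B cell markers summed to 87 and 31 UMIs, of which Ighm gave 84 and 29, with Cd79a at 0. These lists stood at 23.5, 50.1 and 136 CPM in control members and at 12.9, 45.4 and 155 in control comparison cells.

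Oligodendrocyte markers had the highest sum in control members. These 8 markers summed to 90 UMIs, or 141 CPM, led by Mbp with Mog at 0, against 83.5 CPM in comparison cells, and at least 3 of them were found in 8 of 88 members and 5 of 304 comparison cells. Among 4E-BP1-cKO cells the order of the sums was the opposite, with 91.1 CPM in members and 230 in comparison cells, where 1 cell held 104 of the 167 UMIs, and at least 3 were found in 0 of 55 and 1 of 120 cells. Astrocyte markers, led by Slc1a3 with Gja1 and Aldoc at 0, summed to 52 and 24 UMIs in members. Endothelial markers summed to 25 and 7 UMIs, led by Pecam1 with Cldn5 at 0. Neuronal markers summed to 1 and 3 UMIs, erythrocyte markers to 10 and 1, and proliferation markers, led by Stmn1, to 58 and 21. The part of these cells in the results was not tested.

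Across all genes, RP-high microglia differed from the comparison cells in a small set. Of 6330 genes with at least 20 UMIs in each library, 27 were at least 2-fold higher in both libraries, 0.427% of the genes compared, and 29 were at least 2-fold lower, 0.458%. At 1.5-fold, 183 were higher (2.89%) and 254 lower (4.01%), and 27.3% of all genes had a ratio above 0 in both libraries. Scaled to all UMIs, RP and mitochondrial ones included, 16 genes were 2-fold higher and 40 lower. With cells thinned to 900 UMIs, 9 of the 1577 genes that could be compared were 2-fold higher and 10 lower, and against comparison cells from 4% RP share 6 and 13 of 5451 were. The 10 highest, ranked on the ratio nearer 0, were Yae1d1, Cxcl2, Apoe, Rab7b, Tnfrsf12a, Pim1, Etl4, Bcl2a1d, Gpr84 and Lyz2. They hold a chemokine, a lipid carrier, a survival kinase and a survival factor, a receptor for fatty acids and a lysosomal enzyme.

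**Figure D2:**
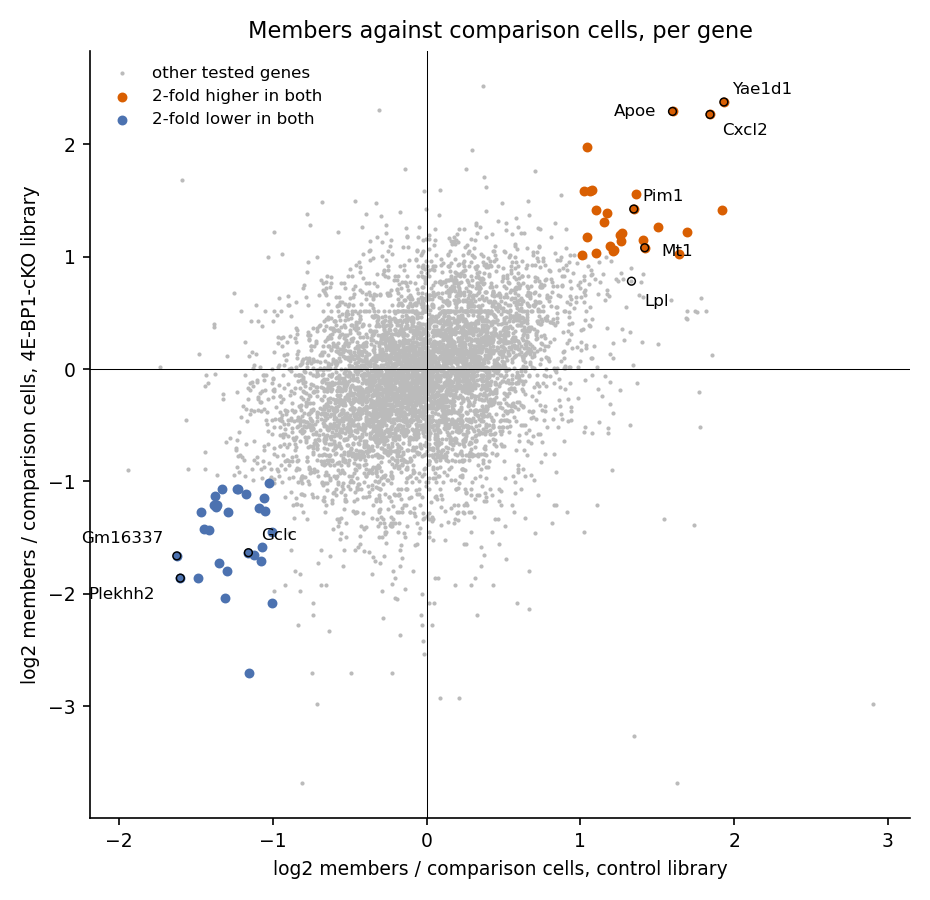
Log2 ratio of members (RP-high microglia) over comparison cells, 1 point per gene, with the control library on the x axis and the 4E-BP1-cKO library on the y axis. Orange points are the 27 genes at least 2-fold higher in both libraries, blue points the 29 at least 2-fold lower, and Lpl lies past 2-fold only in the control library.

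Cxcl2, which encodes a neutrophil-attracting chemokine (GRCm38 chr5:90903899-90905938), was one of 4 markers found for these cells on the same data, so its level describes them and supports nothing. It stood at 462 CPM in control members against 125 in comparison cells, a ratio of 3.69 (exact 95% Poisson interval, 3.10 to 4.39). In the 4E-BP1-cKO library it stood at 1113 against 227, a ratio of 4.90 (4.03 to 5.97). The transcript sat in few cells. It was detected in 28 of 88 control members and 11 of 55 4E-BP1-cKO members, and the single highest member held 33.2% and 41.3% of the UMIs. Of the comparison cells, 16.8% and 24.2% had a UMI, so that among 4E-BP1-cKO cells the share with a UMI was lower in members while the level was higher. Thinned to 900 UMIs per cell, the shares were 13.6% against 5.92% and 18.2% against 10.8%. No cell type without Cxcl2 was at hand to measure free RNA.

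The promoter of Cxcl2 is shown because it holds a match to the core of an NF-kB motif, GGGANNNNCC, in capitals with the base that completes its overlapping match on the other strand.
Cxcl2, chr5:90903792-90903821, plus strand: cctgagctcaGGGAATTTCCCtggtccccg
A match on either strand was found in 20.7% of all RefSeq promoter entries of the same 300 bases and in 23.1% of the TOP list, so the letters alone mark no group.

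Mt1, a metallothionein that binds zinc and other metals, was spread over most members. Its level was 765 CPM against 283 in the control library (log2 ratio 1.42; ratio interval, 2.39 to 3.06) and 792 against 372 in the 4E-BP1-cKO library (1.08; 1.76 to 2.57). It was detected in 73.9% against 51.0% of control cells and in 67.3% against 56.7% of 4E-BP1-cKO cells. Both libraries therefore gave nearly the same member level. With cells thinned to 900 UMIs the log2 ratios were 1.60 and 0.57, under 2-fold in the 4E-BP1-cKO library. Mt2, its neighbour in function, had too few UMIs to be compared, with 30 and 5 in members. Without thinning it was detected in 15.9% against 3.29% of control cells and 7.27% against 3.33% of 4E-BP1-cKO cells. Of the 3 tested genes of the metallothionein and zinc list 1, Mt1, was above and 2 below 0 in both libraries. Beside this stand 27.3% and 35.9% of all genes, and the list medians were -0.03 and -0.08. The whole list summed to 949 against 431 CPM and 923 against 514, most of it Mt1.

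The other markers held less well. Lpl, the lipoprotein lipase, stood at 51.7 against 17.5 CPM in the control library, with 33 UMIs in 19 members. In the 4E-BP1-cKO library it stood at 162 against 92.3, but all 41 member UMIs lay in 5 cells and 26 of them in 1. Lpl had a UMI in 9.09% of members and 18.3% of comparison cells there, and in 21.6% and 8.22% in the control library. Its log2 ratios were 1.33 and 0.78, and 0.34 in the 4E-BP1-cKO library without the richest member and the richest comparison cell. Gclm, the regulatory subunit of the enzyme that starts glutathione synthesis, went the other way. It stood at 25.1 against 62.4 CPM in the control library (16 UMIs in members) and at 11.9 against 20.7 in the 4E-BP1-cKO library (3 UMIs, a ratio of 0.58 with an interval of 0.11 to 2.03). A single control comparison cell held 89 of the 121 Gclm UMIs there, and without the richest cell of each class the control log2 ratio turned from -1.16 to 0.25.

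Apoe, the lipid carrier of macrophages and astrocytes (GRCm38 chr7:19696244-19701310), stood at 1581 CPM in control members against 518 in comparison cells, and at 2843 against 576 in the 4E-BP1-cKO library. Its log2 ratios were 1.60 and 2.29. It was detected in 59 of 88 and 29 of 55 members, and the richest member held 222 of 1009 control UMIs and 337 of 718 4E-BP1-cKO UMIs. Without the richest cell of each class the log2 ratios were 1.57 and 1.69, so that the libraries came close to each other.

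Lyz2, the lysozyme of myeloid cells (GRCm38 chr10:117277541-117282272), stood at 329 against 135 CPM and at 337 against 145. Gpr84, a receptor for medium-chain fatty acids (chr15:103308233-103310670), stood at 371 against 151 and at 487 against 208. The member levels of Lyz2 had a ratio of 1.02 between the libraries (0.79 to 1.32). Thinned to 900 UMIs, Lyz2 was found in 19.3% against 10.2% of control cells and 27.3% against 16.7% of 4E-BP1-cKO cells, and Gpr84 in 26.1% against 9.54% and in 11 of 55 against 23 of 120 cells. The cell share of Gpr84 therefore differed between members and comparison cells in the control and hardly in the other. Neither Lyz2 nor Gpr84 was particular to the members. Thinned in the same way, cells with the top RP share had 29.2% and 21.9% for Gpr84 and 31.25% and 25% for Lyz2.

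Pim1, a kinase that promotes survival, stood at 288 against 110 CPM and at 352 against 128. Bcl2a1d, of the BCL2 family of survival factors, stood at 248 against 73.2 and at 238 against 99.2. Its near-identical copies can share reads, so its level is uncertain. In cells with the top RP share Bcl2a1d stood at 342 and 450 CPM, so it was not particular to the members. Pim1 stood there at 318 and 231. Rab7b, a small GTPase of the lysosomal route, had log2 ratios of 1.92 and 1.41 on 40 and 16 member UMIs, and Tnfrsf12a, the receptor for the cytokine TWEAK, had 1.36 and 1.56 on 38 and 22. With cells thinned to 900 UMIs, 2-fold was no longer reached by Tnfrsf12a (log2 ratios 0.92 and 0.82), by Lyz2 in the control library (0.80), by Gpr84 in the 4E-BP1-cKO library (0.96) or by Etl4 in either. As a mean over cells, Lyz2 was at 0.78 among 4E-BP1-cKO cells. Yae1d1 owed its first place to single cells, with 43 of 58 control UMIs in 1 member, and its log2 ratios of 1.93 and 2.38 became 0.32 and 1.61 without the richest cells.

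Among the other genes at least 2-fold higher in both libraries were Snrpg, a core protein of the spliceosome (log2 ratios 1.17 and 1.39), Slfn2, a regulator of immune cell quiescence (1.64 and 1.03), Uqcrh and Cox7a2l of the respiratory chain (1.01 and 1.01, and 1.04 and 1.18) and Ifi204, an interferon-induced gene (1.22 and 1.06). With cells thinned to 900 UMIs, Ifi204 turned to -0.61 and -0.38, and Slfn2 was at 2.01 and 0.05, Snrpg at 0.50 and 1.92 and Cox7a2l at 0.98 and 0.46. Without the richest cells Uqcrh was at 0.99 and 0.96. Some of the genes at least 2-fold lower had few UMIs in members, and some had only Gm or Rik names. The share of such names among all genes was not counted. Gm16337 stood at 89.3 against 286 CPM and at 43.6 against 149. Adcy9, an adenylyl cyclase, stood at 32.9 against 98.4 and at 31.7 against 93.7, and Cables1, a regulator of cyclin-dependent kinases, at 58.0 against 163 and 51.5 against 147. Gclc, the catalytic partner of Gclm, was lower in both libraries with log2 ratios of -1.16 and -1.63, on 82 and 22 member UMIs. Thinned, Gm16337 was at -1.57 and -0.01 and Gclc at -0.17 and -1.16. Plekhh2, Hjurp and Atg4a had 1, 7 and 12 control member UMIs, and 1, 1 and 2 in the 4E-BP1-cKO members. Their order in the ranking therefore rests on a handful of molecules.

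The TOP mRNAs outside the RP names were higher as a group. All 20 were above 0 in both libraries and none below, beside 27.3% of all genes, 13 were at least 1.5-fold higher in both, beside 2.89%, and the median log2 ratio was 0.80 in each library, beside -0.04 and -0.06. These mRNAs are known to move with RP mRNAs, and several encode proteins bound to the ribosome, so the group is not independent of the selection. Fau, which encodes a small-subunit ribosomal protein fused to a ubiquitin-like one, stood at 3497 against 1554 CPM and at 3489 against 1749. Eef1a1, the elongation factor that brings tRNAs to the ribosome, stood at 3285 against 1611 and 3208 against 1847. Tpt1, a growth-related TOP mRNA, stood at 3154 against 1655 and at 3540 against 1822. Each of these transcripts was found in at least 96.4% of members of either library.

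Nap1l1, a histone chaperone, was the 1 gene of the list at least 2-fold higher in both (log2 ratios 1.10 and 1.41), but it was at 0.42 in the 4E-BP1-cKO library with cells thinned to 900 UMIs and at 0.90 in the control library as a mean over cells. Eif3l, a subunit of initiation factor eIF3, was at the low end with 0.74 and 0.09. Fau, Eef1a1 and Tpt1 have processed copies in the genome that can share reads. Per cell, the list took a median of 1.60% of UMIs in control members against 0.80% in comparison cells, and 1.44% against 0.80% in the 4E-BP1-cKO library. The interquartile ranges of members and comparison cells did not overlap, at 1.40% to 1.82% against 0.58% to 0.99% in control cells. Among members, Spearman's rho between this share and the RP share was 0.56 over 88 control cells and 0.68 over 55 4E-BP1-cKO cells, each pair of values from the same library and the same cell's UMI total.

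Few other genes of the translation machinery were 1.5-fold higher or lower in both libraries. Of 28 other translation initiation factor genes, 0 were, beside 2.89% of all genes higher and 4.01% lower. Above 0 in both libraries were 16 of the 28 and below 0 were 5, beside 27.3% and 35.9% of all genes, and the medians were 0.25 and 0.18, beside -0.04 and -0.06. Of 12 tested ribosome biogenesis genes, 2 were 1.5-fold higher and 0 lower, 5 were above 0 and 3 below, and the medians were 0.35 and -0.01. Eif4ebp1 itself, the targeted gene, had 12 UMIs in control members (18.8 CPM) and 11 in 4E-BP1-cKO members (43.6 CPM). These reads come from the 3′ end and do not check the deletion.

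The make-up of the RP pool was nearly the same in members and comparison cells. Of 81 RP genes compared by their share of RP UMIs, 79 were within 1.5-fold in both libraries, 0 were higher and 1 was lower, Rpl7l1, an Rpl7-like protein, at log2 ratios of -1.21 and -1.23. Rps28 (0.17 and 0.22), Rps26 (0.15 and 0.22) and Rpl32 (0.14 and 0.13) shifted most upward, and Rpl36al (-0.37 and -0.44) and Rps27l (-0.37 and -0.28) followed Rpl7l1 downward. Large-subunit genes gave 54.3% of RP UMIs in members of both libraries and 55.2% and 55.7% in comparison cells. Between the members of the libraries, 0 of 81 shares differed by 1.5-fold. The high RP share was therefore carried by nearly the whole gene family and not by a few of its genes.

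Genes of energy metabolism were mostly above 0. Of 41 nuclear genes of oxidative phosphorylation, 34 were above 0 in both libraries and 0 below, beside 27.3% of all genes above 0, and 12 were at least 1.5-fold higher, beside 2.89%, and the medians were 0.55 and 0.60. Cox4i1, a subunit of cytochrome c oxidase, stood at 373 against 200 CPM and at 388 against 229, and Cox8a, another subunit, at 309 against 183 and at 356 against 147. Of 14 glycolysis genes, 13 were above 0 in both and 3 were 1.5-fold higher, with medians of 0.60 and 0.24. Gapdh stood at 490 against 320 and 408 against 296, and Aldoa, the aldolase, at 139 against 84.5 and 139 against 64.7. Of 17 genes of the list of actin and short cytosolic mRNAs, 16 were above 0 in both libraries and 2 were 1.5-fold higher. The medians were 0.54 and 0.38. Tmsb4x, the actin-binding thymosin, stood at 8066 against 5072 and 7512 against 4778. Actb stood at 5839 against 4011 and 5152 against 3569.

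**Figure D3:**
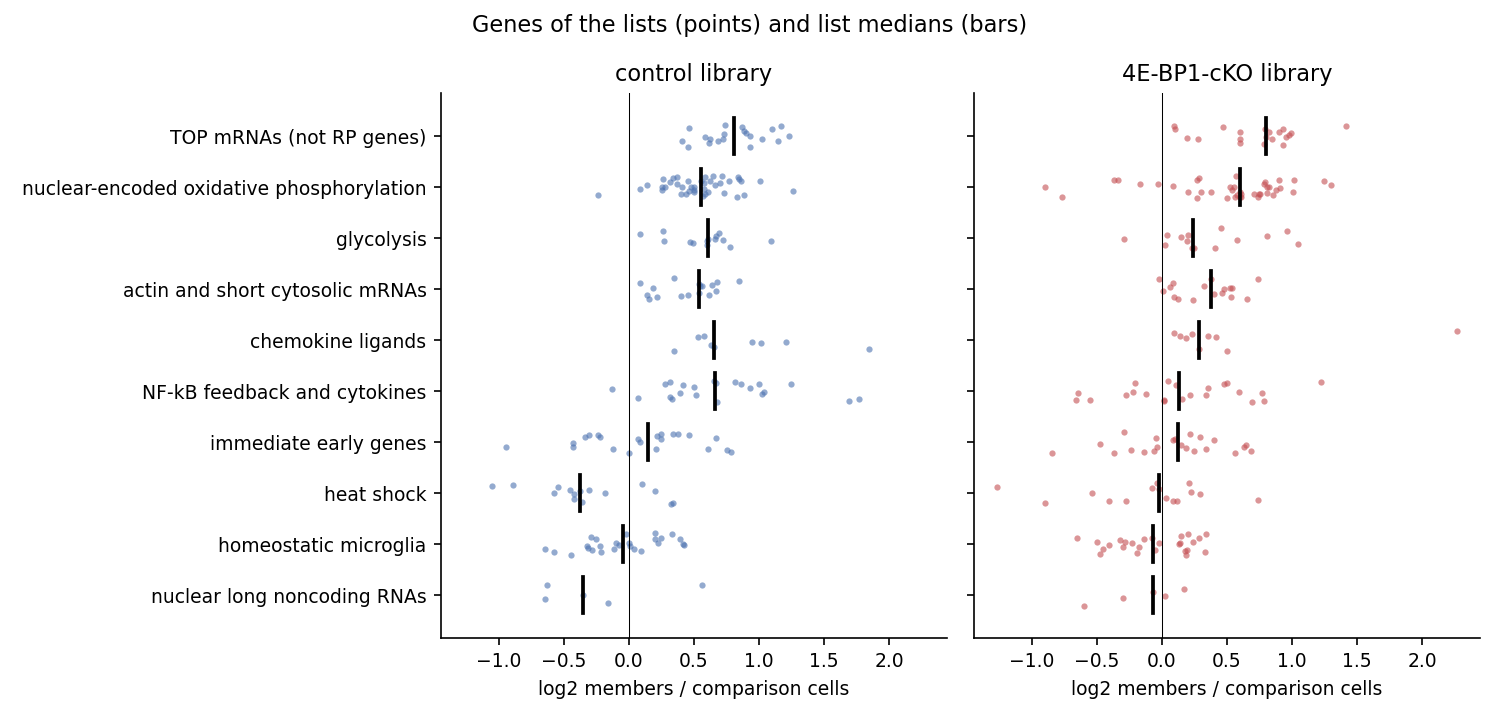
Log2 ratio of members (RP-high microglia) over comparison cells for the genes of 10 lists, 1 point per gene, with a bar at the median of the list, for the control library on the left and the 4E-BP1-cKO library on the right. The 20 TOP mRNAs lie above 0 throughout with medians of 0.80, whereas the 26 homeostatic genes lie on both sides of 0.

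In the chemokine and NF-kB lists the median ratio was higher in the control than in the 4E-BP1-cKO library. That difference between the libraries was not tested, and the ratio of Cxcl2 was the higher one in the 4E-BP1-cKO library. All 9 tested chemokine ligand genes were above 0 in both libraries, beside 27.3% of all genes, but only Cxcl2 was 1.5-fold higher in both, beside 2.89%, and the medians were 0.65 and 0.28. Ccl4 stood at 6499 against 3369 CPM in the control and at 7259 against 6370 in the 4E-BP1-cKO library. Ccl3 stood at 1783 against 1131 and at 2534 against 1902, and Ccl12 at 321 against 136 and 293 against 249. Each pair was closer in the 4E-BP1-cKO library, where the comparison cells had higher levels of these 3 ligands than those of the control library.

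Of 22 NF-kB feedback and cytokine genes, 14 were above 0 in both libraries and 0 below, beside 27.3% of all genes above, 5 were 1.5-fold higher, beside 2.89%, and the medians were 0.66 and 0.13. Nfkbia, the inhibitor that NF-kB induces, stood at 2535 against 1439 CPM and at 3877 against 2402. Tnf stood at 536 against 266 and 756 against 441. Il1b, the cytokine interleukin-1 beta, was one of the 8 genes above 0 in 1 library at most, at 473 against 135 CPM in the control and 253 against 293 in the 4E-BP1-cKO library. Its log2 ratios were 1.77 and -0.21, on 302 and 64 member UMIs in 27 and 16 cells, and 1.79 and -0.12 without the richest cells. That difference between the libraries was not tested.

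Early response genes lay on both sides of the comparison cells. Of 22 immediate early genes 11 were above 0 in both libraries and 6 below, beside 27.3% and 35.9% of all genes. At 1.5-fold 2 were higher and 1 lower, beside 2.89% and 4.01%, with medians of 0.15 and 0.12. Junb, an AP-1 subunit, was among the higher ones, at 4177 against 2628 CPM and 5869 against 3740, whereas Fos, another, stood at 3311 against 3127 and 4000 against 3442. Nr4a2, an orphan nuclear receptor, was lower with log2 ratios of -0.95 and -0.85 on 14 and 6 member UMIs. Of 15 heat shock genes 1, the co-chaperone Bag3 (105 against 223 CPM and 55.4 against 141), was 2-fold lower in both, beside 0.458% of all genes. Above 0 in both were 3 and below were 7, beside 27.3% and 35.9%, and the medians were -0.38 and -0.02. Thinned to 900 UMIs per cell, Bag3 had log2 ratios of -0.15 and -0.77. Dnajb1, also a co-chaperone, had log2 ratios of 0.34 and 0.74.

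Redox, iron and lipid genes are read against 2.89% of all genes 1.5-fold higher in both libraries and 4.01% lower. Of 14 NRF2 target genes 2 were 1.5-fold higher and 1 lower, Gclc, with medians of 0.40 and 0.17. Txnrd1, the thioredoxin reductase, stood at 268 against 85.6 CPM and at 210 against 135. Of 8 iron genes 0 were 1.5-fold higher and 1 was lower, Slc40a1, the iron exporter ferroportin (64.2 against 152 and 63.4 against 103). Fth1, the ferritin heavy chain, stood at 3691 against 2344 and 3822 against 2722. Of 15 lipid handling genes 5 were 1.5-fold higher and 0 lower, with medians of 0.28 and 0.65. Npc2, a lysosomal cholesterol carrier, had log2 ratios of 0.43 and 0.69, and Abca1, the cholesterol exporter, of -0.56 and -0.60.

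Of 5 further lists no gene was 1.5-fold lower in both libraries. The counts stand beside 2.89% of all genes 1.5-fold higher and 4.01% lower, and 27.3% above 0 in both. Of 28 proteasome genes 2 were 1.5-fold higher in both libraries and 14 above 0, with medians of 0.25 and 0.25. Of 25 lysosome genes 1 was 1.5-fold higher and 11 above 0, with medians of 0.14 and 0.05. Of 7 interferon-stimulated genes 1 was 1.5-fold higher and 3 above 0, with medians of 0.72 and 0.23. None of 11 genes of antigen presentation was 1.5-fold higher, and 9 were above 0 in both libraries, with medians of 0.42 and 0.24. B2m, the light chain of class I molecules, stood at 1656 against 1175 CPM and 1386 against 1207. Of 10 snoRNA host genes 0 were 1.5-fold higher and 5 above 0, with medians of 0.32 and 0.02.

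The nuclear noncoding RNAs were mixed. Malat1, a long noncoding RNA that stays in the nucleus, had log2 ratios of -0.35 and -0.07, and Mir99ahg, a microRNA host transcript, of -0.63 and -0.60. Neat1, a long noncoding RNA of nuclear paraspeckles, stood higher in control members, at 497 against 334 CPM, and at 230 against 284 in the 4E-BP1-cKO library (log2 ratios 0.56 and -0.30). None of the 5 tested nuclear noncoding RNAs was above 0 in both libraries and 2 were below, beside 27.3% and 35.9% of all genes, with medians of -0.35 and -0.07. Among members their share of UMIs was lower in deeper cells, with Spearman's rho of -0.66 over 88 control and -0.59 over 55 4E-BP1-cKO cells.

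The study's signature lists were described in the same way, with RP genes left out. Of 53 tested genes of the disease-associated microglia (DAM) list, 4 were 2-fold higher and 0 lower in both libraries, beside 0.427% and 0.458% of all genes, and 35 were above 0 in both, beside 27.3%, with medians of 0.42 and 0.19. Of 54 tested genes of the injury-responsive microglia (IRM) list, from which 66 RP genes were removed, 4 were 2-fold higher and 0 lower, with 44 above 0 in both and medians of 0.55 and 0.34. Of 12 tested genes of the CD11c list, 2 were 2-fold higher and 0 lower, with medians of 1.003 and 0.17. These lists share genes with those above, Apoe among them.

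Along the whole range of RP share the groups took different courses. In 8 bins from under 1% to the top cells, Fau climbed at each step in both libraries, from 234 to 6765 CPM in the control and from 211 to 7585 in the 4E-BP1-cKO library. Apoe stayed between 235 and 802 CPM below the members in the control library, was at 1483 and 1713 in the members' bins, and reached 5085 in the top cells. Among 4E-BP1-cKO cells it was at 252 to 978 below the members, at 1755 and 4345 in them, and at 7385 in the top cells. The order of the bins rests on few cells, since 1 cell held 337 of the 718 UMIs of 4E-BP1-cKO members, and in the 5 control and 4 4E-BP1-cKO members just under the upper limit Apoe stood at 71.9 and 57.7 CPM, below the comparison cells.

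Cxcl2 had no steady course. In the control library it went from 132 CPM in the bin below the members to 636 and 228 in the members' bins and 912 in the top cells. Among 4E-BP1-cKO cells it was at 530 below the members, at 287 and 2253 in them, and at 1101 in the top cells. The 5 richest members held 66.1% of its control and 87.5% of its 4E-BP1-cKO UMIs. In control cells Mt1 climbed up to the members and no further, from 79.7 CPM in the lowest bin to 756 and 776 in the members' bins and 734 in the top cells. Malat1 went down over the same range, from 45110 to 22140 CPM in the control and from 55116 to 29803 in the 4E-BP1-cKO library.

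**Figure D4:**
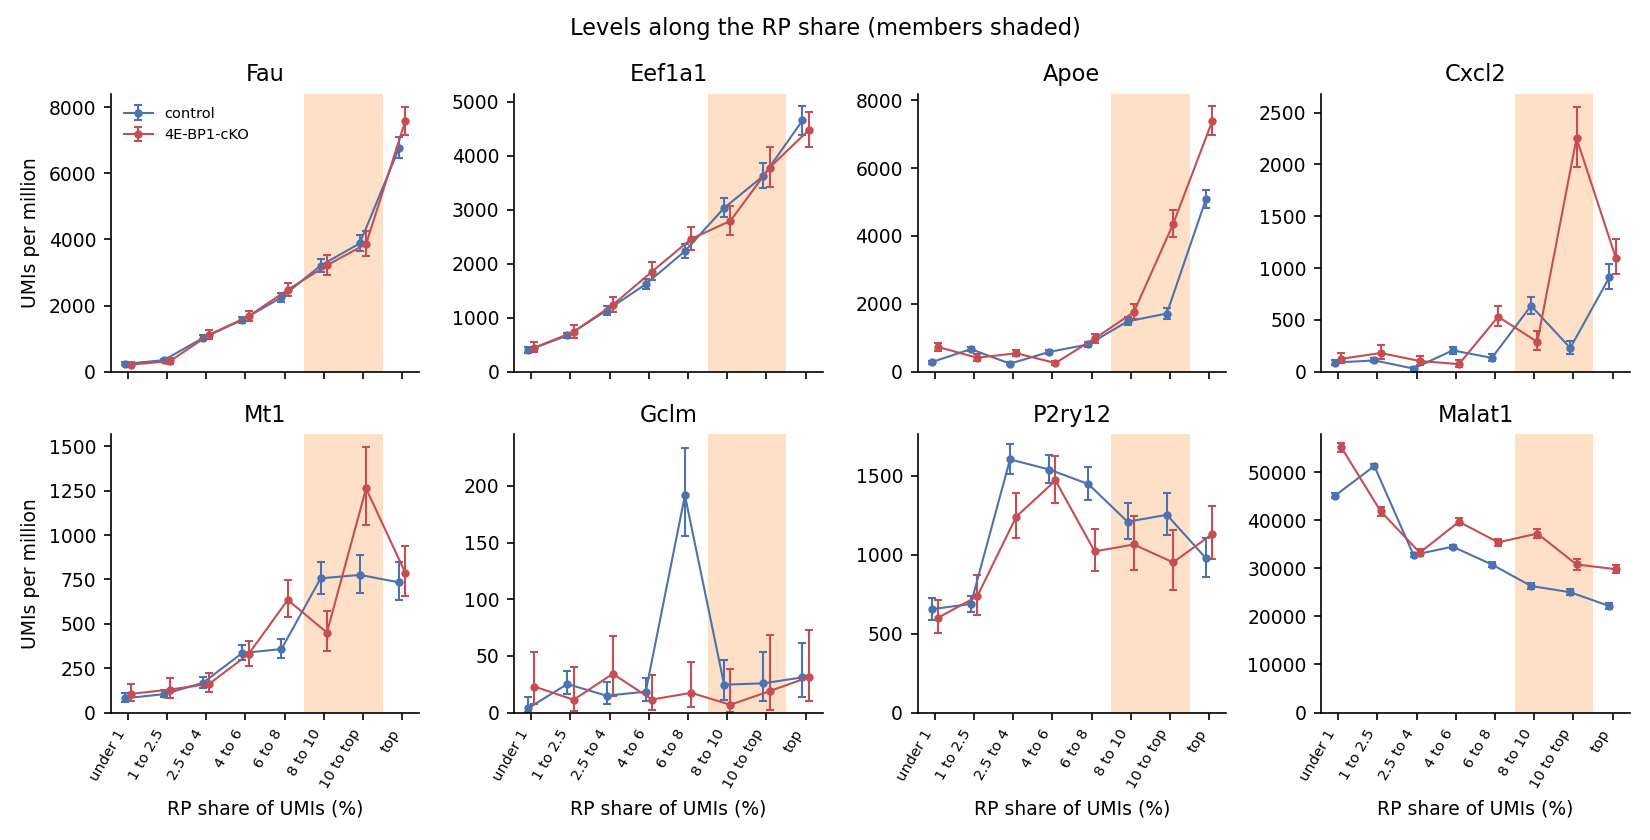
Levels of Fau, Eef1a1, Apoe, Cxcl2, Mt1, Gclm, P2ry12 and Malat1 in 8 bins of RP share, in CPM outside RP and mitochondrial genes, with exact 95% Poisson bars and the members' bins shaded. Fau climbs through every bin, Apoe is highest in the top cells, Cxcl2 jumps from bin to bin, and the Gclm peak of the control library holds the single rich comparison cell.

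The members of a library were not uniform. In control members Mt1 was found in 89.3% of the 28 cells with Cxcl2 and in 66.7% of those without. In 4E-BP1-cKO members it was found in 81.8% of 11 and 63.6% of the others. In comparison cells the pairs were 52.9% and 50.6%, and 62.1% and 54.9%. Cells were not thinned for these detection shares, and the part of depth in them was not tested. Apoe was found in 67.9% of control members with Cxcl2 and 66.7% of those without. The 4E-BP1-cKO members gave 63.6% of 11 and 50% of the others, and in comparison cells the pairs were 64.7% and 48.2%, and 65.5% and 42.9%. The per-cell share of the 26 homeostatic genes ran from 2.75% to 24.3% in control members, with a median of 6.86%. In 4E-BP1-cKO members it ran from 3.75% to 15.1% with a median of 6.69%. In comparison cells it ran from 0.39% to 16.8% and from 0.66% to 12.8%, with medians of 5.78% and 5.67%. A wide spread was therefore not particular to the members. The NF-kB list ran from 0.19% to 4.37% and from 0.16% to 3.91% in members, with medians of 1.31% and 1.43%. In comparison cells it ran from 0% to 2.98% and from 0% to 3.86%. The ranges of the libraries overlapped for both lists.

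Between the libraries, 3260 genes had at least 50 UMIs in members. In 4E-BP1-cKO members 20 were at least 2-fold higher than in control members, 0.613% of those compared, and 68 were at least 2-fold lower, 2.09%. Control members were the deeper ones, with a median of 7576 against 4683 UMIs. With cells thinned to 900 UMIs 396 genes could be compared and the counts were 2 and 9, and without the richest cell of each gene they were 12 and 114. These compare 2 libraries and not the genotypes. Of the 20, 14 had the same sign in the comparison cells and 4 were 2-fold higher there too, and of the 68, 47 and 9. The median log2 ratio of these genes in the comparison cells was 0.22 and -0.26. The genes were chosen on the member values, so smaller ratios in the comparison cells carry no information by themselves.

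Among genes with at least 200 member UMIs the highest was Cxcl2, at 1113 against 462 CPM, a ratio of 2.41 (2.04 to 2.84). Its log2 ratio was 1.26 in members and 0.83 in comparison cells. Dusp2, a phosphatase that restrains MAP kinases, had a log2 ratio of 1.08 (400 against 186 CPM), and 1.03 in the comparison cells. Rgs1, which dampens chemokine receptor signals, had 1.07 in members and -0.27 in comparison cells, since control members (378 CPM) lay below control comparison cells (989). Ccrl2, a chemokine-binding receptor, and Ier3, an early response gene, had 0.99 and 0.92, and 0.64 and 0.48 in the comparison cells. Lpl, below that minimum of UMIs, had a ratio of 3.14 (1.94 to 5.13) in members, with 26 of its 41 4E-BP1-cKO UMIs in 1 cell. The log2 ratio of Lpl was 1.56 in members and 2.11 in comparison cells, where 1 4E-BP1-cKO cell held 33 of 67 UMIs.

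The lowest was Tmem119, from which the recombinase is expressed in the 4E-BP1-cKO mice. It stood at 564 CPM in control members (360 UMIs) and 162 in 4E-BP1-cKO members (41 UMIs), a ratio of 0.29 (0.20 to 0.40). Its log2 ratio was -1.77 in members and -1.57 in comparison cells, so it was lower in both classes of cells. The heat shock genes Hspa1b (1330 against 471 CPM, log2 ratio -1.49) and Hsph1 (-1.38) were also lower in both classes, at -1.40 and -1.06 in the comparison cells. Hspa1b has a near-identical neighbour, so its level is uncertain. Neat1 was lower mainly in members, at -1.10 against -0.23. The Y-linked gene Ddx3y had 91 and 24 UMIs in members and Xist 0 and 1, as in male cells.

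**Figure D5:**
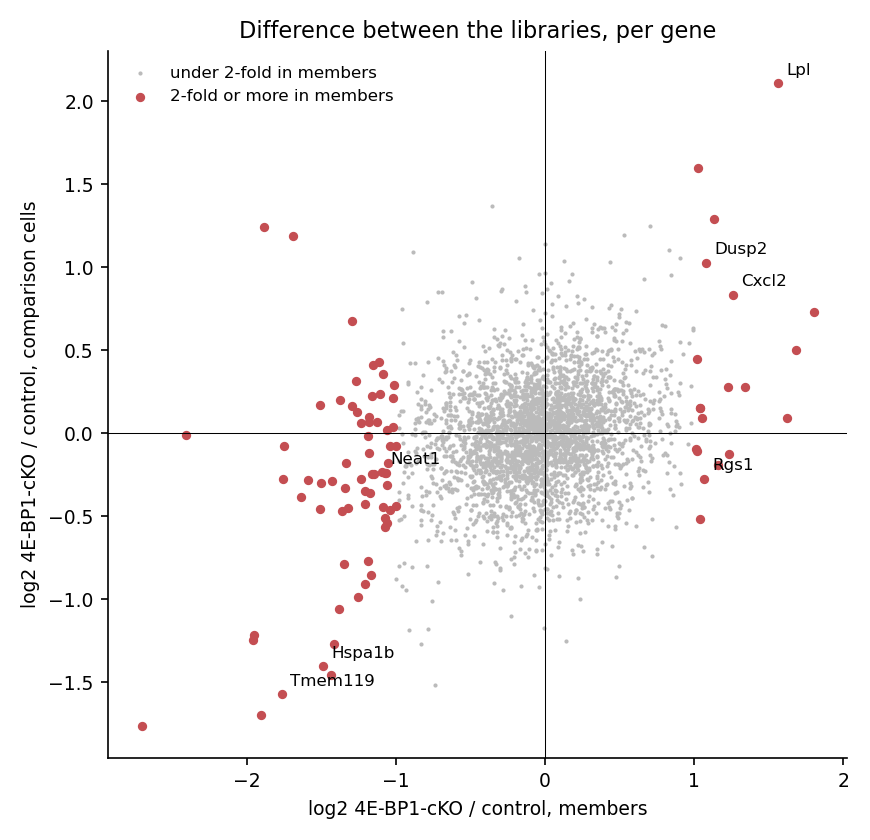
Log2 ratio of the 4E-BP1-cKO over the control library, 1 point per gene with at least 50 member UMIs, in members (RP-high microglia, x axis) and in comparison cells (y axis). Red points are the 20 genes at least 2-fold higher and the 68 at least 2-fold lower in 4E-BP1-cKO members, and Tmem119 and Hspa1b lie far below 0 on both axes whereas Rgs1 is above 0 only in members.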

How the data were processed

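The authors aligned 3′ droplet reads to mm10 with Cell Ranger count 8.0.1 and deposited raw UMI counts for 32285 genes and the barcodes called as cells, without normalization. Per the labels each library is 1 sample. Of the annotation, the sources used here give no release. 0 columns of other samples were present.

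Kept barcodes had more than 300 genes and a mitochondrial share under 5%, and 1 further barcode over the RP limit was removed in each library by the mitochondrial limit. Symbols starting with Rps or Rpl and a digit, Rplp0, Rplp1, Rplp2 and Rpsa were RP genes, without Rps6k, Rps19bp1 and pseudogenes. UMIs were summed per class and library and scaled to 1e+06 UMIs (CPM) outside RP and 13 mitochondrial genes. Intervals were exact at 95% (binomial, Poisson and conditional Poisson). Doublets were called per library with Scrublet in scanpy 1.11.5 and kept. Other steps used Python 3.11.15, numpy 2.4.6, scipy 1.17.1 and pandas 2.3.3, and were tested on simulated data. Cells and genes are not replicates, so p-values were not computed.

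The members, their markers and the gene lists were chosen with earlier results of these data known. In the DAM list 68 of 88 names were matched and in the IRM list 152 of 154. Genes named were the target, the markers, the 4 genes of each list with the most member UMIs and its extremes, the 10 highest and 10 lowest ratios of members over comparison cells, the 5 highest and 5 lowest between the libraries, the RP genes with the 3 largest shifts each way, Ddx3y and Xist. Snrpg, Slfn2, Uqcrh, Cox7a2l, Ifi204, Gclc, Il1b, Tnf, Txnrd1, Ccl12, Mt2, P2ry12, Cx3cr1, Fcrls, Mef2c, Rack1, Eif3f, Rps21, Rpl35a, Abca1, Npc2, Cox8a, Mir99ahg and Prdx1 were, at least in part, chosen after their values were seen. Values of some genes that this rule names are not reported here. Sequences are RefSeq promoter entries of GRCm38.p6, matched by symbol.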

Additional observations from a re-analysis of the deposited data

Results flagged for a closer look

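Among the genes named here or on the lists, Prdx1, a peroxide-reducing enzyme, stood out because the ratio of members over comparison cells had opposite signs in the libraries with an interval that left out 1 in each, and this difference was not tested. Its log2 ratio was 0.44 in the control library (201 against 146 CPM) and -0.63 in 4E-BP1-cKO cells (131 against 205), on 128 and 33 member UMIs. Without the richest cells its log2 ratios were 0.41 and -0.51.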

How the results depend on the processing

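The share of members in the control and 4E-BP1-cKO libraries was 3.05% and 4.72% at an RP limit of 10%, 10.3% and 16.9% at 7%, 14.1% and 18.05% with at least 3000 UMIs, and 9.43% and 18.4% with cells thinned to 1200 UMIs, always larger in 4E-BP1-cKO cells. The genes 2-fold higher and lower in members (27 and 29) became 9 and 10 with thinning to 900 UMIs, 10 and 5 with a pseudocount of 20, 6 and 13 against comparison cells from 4%, 41 and 110 at an RP limit of 10%, 50 and 92 without a minimum of UMIs, 12 and 7 with at least 100 UMIs, and 183 and 254 at 1.5-fold. Scaling to all UMIs gave 16 higher. Leaving out the richest cell of each gene, an alternative added after the data were seen, gave 76 lower, and turned Gclm to 0.25 in the control library. Between the libraries, the genes higher and lower in 4E-BP1-cKO members (20 and 68) became 2 and 9 with thinning, 11 and 34 with a pseudocount of 20, 3 and 6 with at least 200 UMIs, 596 and 1136 without a minimum, 165 and 319 at 1.5-fold, and 12 and 114 without the richest cell. The mean over cells gave 106 lower. Median-of-ratios scaling, a mitochondrial limit of 10%, more than 500 genes per cell and leaving out the barcodes marked by Scrublet moved no share past its interval and no count by over 1.5 times. The cause of these moves was not tested, other than that fewer or more genes were compared where the minimum of UMIs or the thinning set that number.

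Over 11 alternatives the TOP median stayed between 0.61 and 0.99 for control and 0.61 and 0.97 for 4E-BP1-cKO, and that of oxidative phosphorylation between 0.37 and 0.60 and 0.44 and 0.81. For 4E-BP1-cKO cells the median changed sign in 1 alternative for chemokines, 2 for heat shock, 3 for homeostatic genes and 2 for nuclear noncoding RNAs. Cxcl2 stayed between 0.84 and 2.17 and between 1.16 and 3.28. No paired analysis was possible because each genotype had 1 library. Depth limits genes of low count, and a count of 0 allows up to 3 UMIs.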
